A study of Chromochloris zofingiensis with 12 samples.

Results

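In continuous cultures of the unicellular green alga *Chromochloris zofingiensis*, 26 of 15274 listed genes were moderately higher at high light and lower at limiting nitrate. These genes were chosen by their measured values. A gene was taken when its mean log2(FPKM + 1), after quantile normalization, was higher in HL 10 mM than in LL 10 mM by 0.5 to under 1, and lower in LL 1 mM than in LL 10 mM by 0.5 or more. Every HL 10 mM library also had to lie above, and every LL 1 mM library below, all LL 10 mM libraries. The 25 carotenogenic gene IDs that the study lists and the 100 genes of highest mean FPKM in LL 10 mM were to be left out, but 0 of either met the measured part. FPKM counts fragments relative to transcript length and to the number mapped in a library, and is a unit inferred here from the values. The thresholds apply to 14916 genes, because 358 genes listed at 0 in all 12 libraries were dropped.

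All cultures were of the wild-type strain CCAP 211/14, kept in photobioreactors at a dilution rate of 0.5 per day and sampled 4 h into the light period. HL 10 mM received 10 mM nitrate and a maximum irradiance of 1000 µE m−2 s−1, LL 1 mM received 1 mM nitrate and 300 µE m−2 s−1, HL 1 mM received 1 mM nitrate and 1000 µE m−2 s−1, and LL 10 mM, the unstressed control, received 10 mM nitrate and 300 µE m−2 s−1. Each condition has 3 libraries of polyadenylated RNA. The sources do not say whether these are the consecutive sampling days or separate reactors, and p-values therefore cover only the variation among these samples, which could be technical. The table carries no read counts, so the depth behind each value is unknown from it. Library sums lay between 956599 and 1126292 FPKM, and the median gene lay between 17.8 and 20.8 FPKM in the 1 mM libraries and between 12.6 and 14.7 FPKM in the 10 mM libraries.

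Nitrate is the nitrogen source from which the alga makes amino acids, nucleotides and chlorophyll, and cells short of it slow protein synthesis and store carbon as starch and lipid. Strong light drives photosynthesis faster than its products can be used, which calls on photoprotection. In *C. zofingiensis* both stresses are known for ketocarotenoid accumulation, so genes on which light and nitrate shortage lie on opposite sides of the unstressed control form a separate pattern. The sources used here give no product for any of the 26 genes, which are therefore described by ID, level and response only.

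The pattern was the least frequent of the 4 that these thresholds define, also without normalization and with median scaling. With the same limits, 114 genes were higher in both HL 10 mM and LL 1 mM, 127 were lower in HL 10 mM and higher in LL 1 mM, and 169 were lower in both, against the 26 described here. Apart from the genes left out, 345 met both light demands, a difference of 0.5 to under 1 and no overlap of libraries. The nitrate demands, a difference of −0.5 or lower and no overlap of libraries, were met by 1749. Without the demand that libraries do not overlap, 34 genes met the fold limits for light and nitrate together. These counts depend on the normalization, and without any normalization between libraries they were 10 for the pattern described here, 228, 220 and 88. Scaled to a common median, they were 38, 108, 204 and 172. Only 13 of the 26 genes were among these 38, and only 4 were among the 10 found without normalization.

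**Figure D1:**
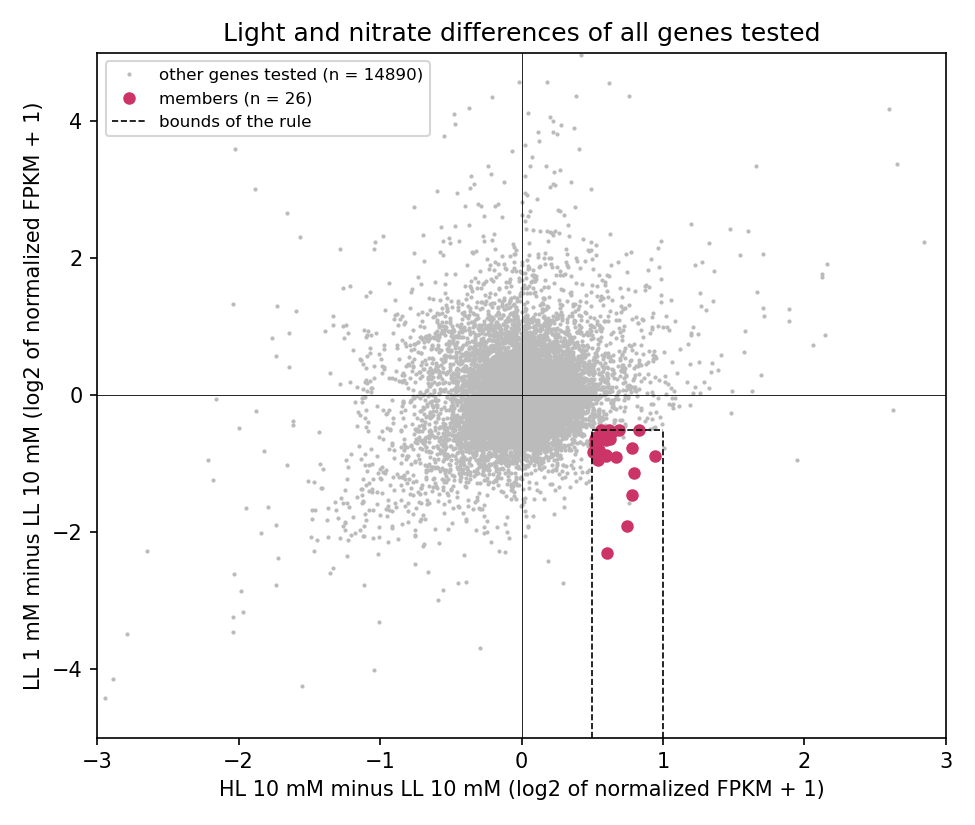
Difference of HL 10 mM from LL 10 mM (x axis) and of LL 1 mM from LL 10 mM (y axis), in log2 of normalized FPKM + 1, for the 26 members (large points) and 14890 other genes tested (small points; 13 lie outside the axes). The dashed lines are the bounds of the rule, and most members lie near its upper left corner.

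Within the chosen range the light differences (HL 10 mM minus LL 10 mM) ran from 0.50 to 0.94 with a median of 0.60, and the nitrate differences (LL 1 mM minus LL 10 mM) from −2.31 to −0.50 with a median of −0.74. These values chose the genes and carry no test. Light ratios of normalized FPKM, HL 10 mM over LL 10 mM, lay between 1.46 for Cz08g25110 and 2.27 for UNPLg00003. At the lower light limit, Cz02g36210 (0.50) and Cz05g15070 (0.52) were just inside, and UNPLg00879 (0.49) and Cz02g37090 (0.48) just outside. At the upper light limit, UNPLg00003 (0.94) and Cz07g11060 (0.83) were inside, and Cz01g37190 (1.005) and Cz03g01250 (1.95) outside. At the nitrate limit, Cz07g11060 (−0.50) and Cz07g05170 (−0.51) were inside, and Cz10g15120 and Cz01g11220 (both −0.49) outside. The nitrate difference was −1.50 in UNPLg00879 and −1.25 in Cz02g37090, and only 3 members had one below −1.25.

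The members were mostly weakly expressed. Their median in LL 10 mM was 4.39 normalized FPKM, against 16.1 for all genes tested, and 15 of the 26 were under 5. In level they ranked between the 15.4th and 75.5th percentile of genes. Their replicates also scattered more, with a median SD of 0.186 on the log2 scale, against 0.133 for all genes. Differences on the log2(FPKM + 1) scale understate the change of genes this low.

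A group of 4 genes met the rule with and without normalization between libraries, and 3 of them had the lowest nitrate differences of all members. Cz06g22160 had 21.4, 33.7 and 29.7 normalized FPKM in HL 10 mM, 2.31, 3.86 and 2.51 in LL 1 mM, 2.72, 1.90 and 2.07 in HL 1 mM, and 15.8, 20.7 and 17.6 in LL 10 mM. All 3 libraries of both 1 mM conditions lay below 4 normalized FPKM and every 10 mM library lay above 15. As deposited, before normalization, it had 18.6, 30.5 and 28.7 deposited FPKM in HL 10 mM, 2.78, 4.92 and 3.86 in LL 1 mM, 4.09, 2.94 and 3.73 in HL 1 mM, and 13.8, 16.7 and 14.5 in LL 10 mM, with the same separation. The gene therefore differed from LL 10 mM by 0.60 in HL 10 mM and by −2.31 in LL 1 mM.

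Cz04g36120 was near the floor wherever nitrate was 1 mM. It had 5.89, 5.07 and 5.47 normalized FPKM in HL 10 mM, 0.0814, 0 and 0 in LL 1 mM, 0.0266, 0 and 0 in HL 1 mM, and 2.71, 3.12 and 2.76 in LL 10 mM. Replicates 2 and 3 of LL 1 mM and of HL 1 mM were listed at 0 and the first replicates lay below 0.1 normalized FPKM, while no 10 mM library was below 2.7. In deposited units it had 3.86, 3.21 and 4.35 deposited FPKM in HL 10 mM, 0.115, 0 and 0 in LL 1 mM, 0.0576, 0 and 0 in HL 1 mM, and 1.92, 1.95 and 2.10 in LL 10 mM. A value of 0 in a table without counts may be a failed estimate, so no ratio to LL 10 mM is given.

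Cz12g24020 had 11.9, 15.8 and 12.2 normalized FPKM in HL 10 mM, 1.49, 2.73 and 1.91 in LL 1 mM, 1.80, 1.53 and 1.80 in HL 1 mM, and 5.93, 9.01 and 7.16 in LL 10 mM. Its HL 10 mM libraries were all above, and its 1 mM libraries all below, the LL 10 mM libraries. Cz08g25110, the most strongly expressed of the 26, had 49.1, 62.6 and 59.8 normalized FPKM in HL 10 mM, 22.1, 21.2 and 16.8 in LL 1 mM, 20.0, 19.8 and 17.2 in HL 1 mM, and 34.5, 45.3 and 38.0 in LL 10 mM. Its lowest HL 10 mM library (49.1) lay close to its highest LL 10 mM library (45.3), while the 1 mM libraries did not exceed 22.1.

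**Figure D2:**
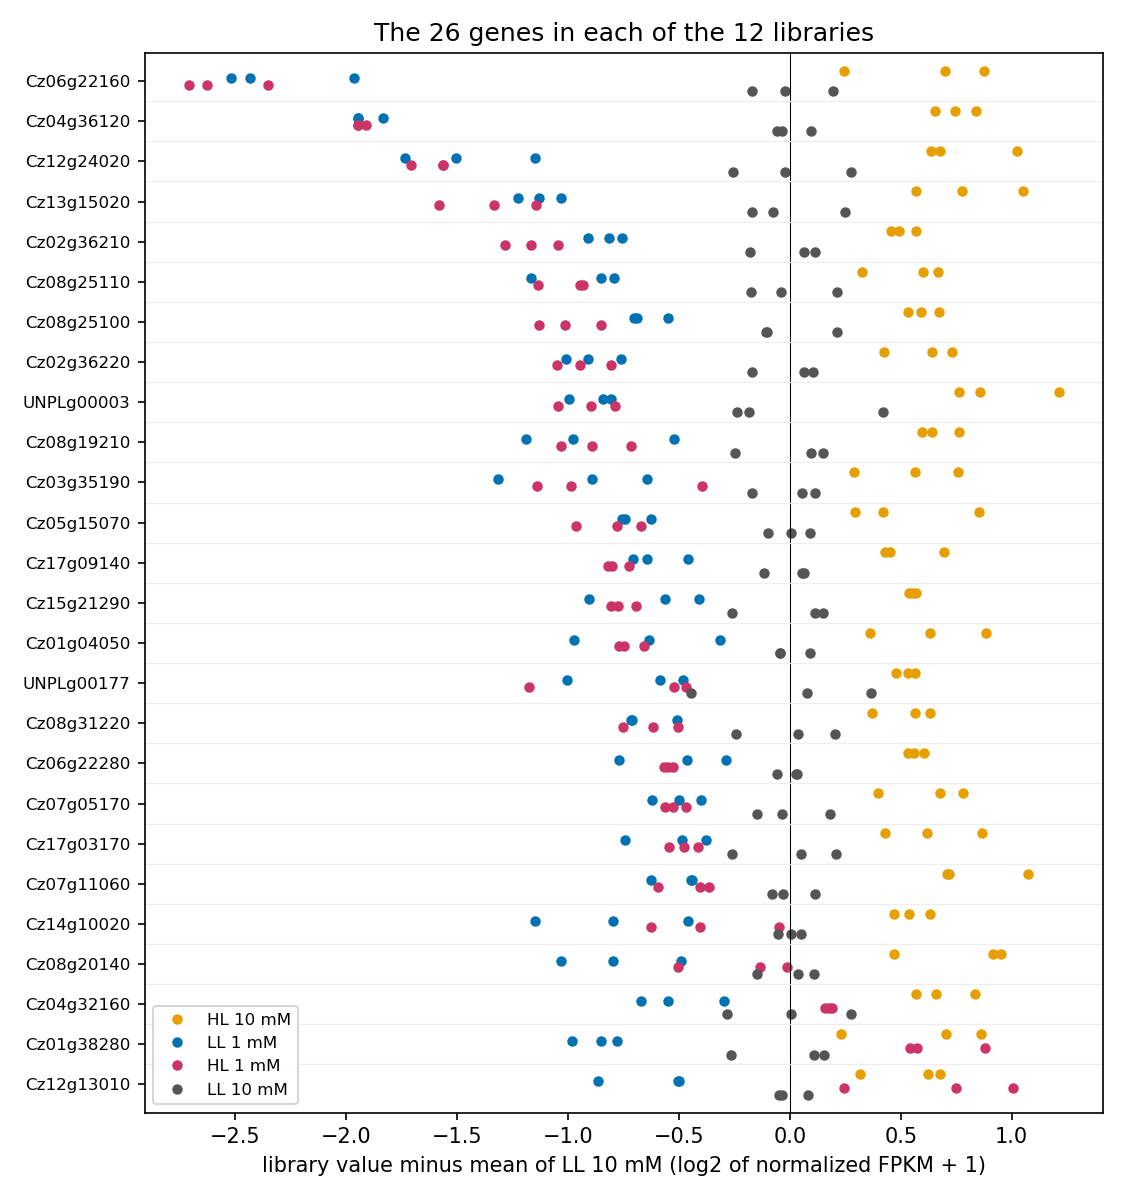
Value of each of the 26 members (rows) in each of the 12 libraries, as the difference from the gene's mean in LL 10 mM in log2 of normalized FPKM + 1; each point is 1 library, coloured by condition. HL 10 mM points lie to the right and LL 1 mM points to the left of the LL 10 mM points by construction, and in 21 members the HL 1 mM points lie to the left as well.

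The light side of the choice rested less on normalization than the nitrate side. In deposited FPKM, the HL 10 mM libraries lay above all LL 10 mM libraries in 25 members (all but UNPLg00177), where 25.0% of all genes tested do so. The LL 1 mM libraries lay below all LL 10 mM libraries in 10 members, where 7.98% of all genes do so. Quantile normalization brought the libraries to 1 distribution, and it took out a difference in median level between the 1 mM and 10 mM libraries. Without it, the median of all genes was higher in LL 1 mM than in LL 10 mM by 0.31 and in HL 1 mM by 0.41, and in HL 10 mM by 0.06. On that scale 22 of the 26 kept both signs. Cz17g03170, Cz08g31220, Cz12g13010 and Cz17g09140 were then higher in LL 1 mM than in LL 10 mM, by 0.11, 0.02, 0.02 and 0.02, which is below the median shift of all genes. After quantile normalization their differences were −0.53, −0.64, −0.62 and −0.60, so it moved these weakly expressed genes by more than that median shift. None of these met the rule with median scaling. In Cz08g25110, the most strongly expressed member, the nitrate difference changed less, from −0.58 to −0.94. Lower in LL 1 mM is thus a statement relative to the other genes for most members. With each library left out in turn, 18 to 32 genes met the rule, and 7 of the 26 did so in all 12 runs. The fewest came without HL 10 mM replicate 2, and at least 17 of those chosen were always among the 26.

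The libraries that the rule did not use are those of HL 1 mM, where both stresses were combined. They show which of the opposite differences prevailed. Because the contrasts of HL 1 mM with LL 10 mM, LL 1 mM and HL 10 mM each share 3 libraries with the choice of the genes, they are no independent support for the pattern. In HL 1 mM against LL 10 mM, limma called 21 of the 26 genes lower at a Benjamini-Hochberg adjusted p under 0.05, where 28.8% of all genes tested were lower, and 2 higher, where 25.0% of all genes were higher. The difference from LL 10 mM ran from −2.56 to 0.67, with a median of −0.77 for the members and −0.05 for all genes. For the 1749 genes that met the nitrate demands at any light difference, members included, the median was −0.82. A fall of this size was therefore not particular to the members. In 21 genes no HL 1 mM library reached the lowest LL 10 mM library (33.9% of all genes tested), and in 2 genes all HL 1 mM libraries lay above (27.8% of all genes). In deposited FPKM, 7 members had all HL 1 mM libraries below LL 10 mM (7.89% of all genes). With median scaling limma called 16 lower, without Cz03g35190, UNPLg00177, Cz17g03170, Cz08g31220 and Cz07g05170. Without normalization it called 7 lower and 5 higher, and the members' median was −0.07 against the shift of 0.41 given above for all genes.

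The largest falls in HL 1 mM belonged to Cz06g22160, which fell by 2.56 (SE 0.19, limma adjusted p = 1.59e-06), Cz04g36120, which fell by 1.93 (SE 0.07, adjusted p = 4.91e-09), and Cz12g24020, which fell by 1.61 (SE 0.17, adjusted p = 2.1e-05), all relative to LL 10 mM. Cz13g15020 had 7.87, 9.74 and 6.67 normalized FPKM in HL 10 mM, 1.22, 1.53 and 1.36 in LL 1 mM, 1.05, 1.34 and 0.729 in HL 1 mM, and 3.91, 5.15 and 3.60 in LL 10 mM. It fell by 1.35 in HL 1 mM (SE 0.15, limma adjusted p = 3.37e-05). Its 10 mM and 1 mM libraries did not overlap. These genes, with Cz08g25110, Cz02g36210 and Cz08g25100, are the 7 that limma also called lower without normalization.

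**Figure D3:**
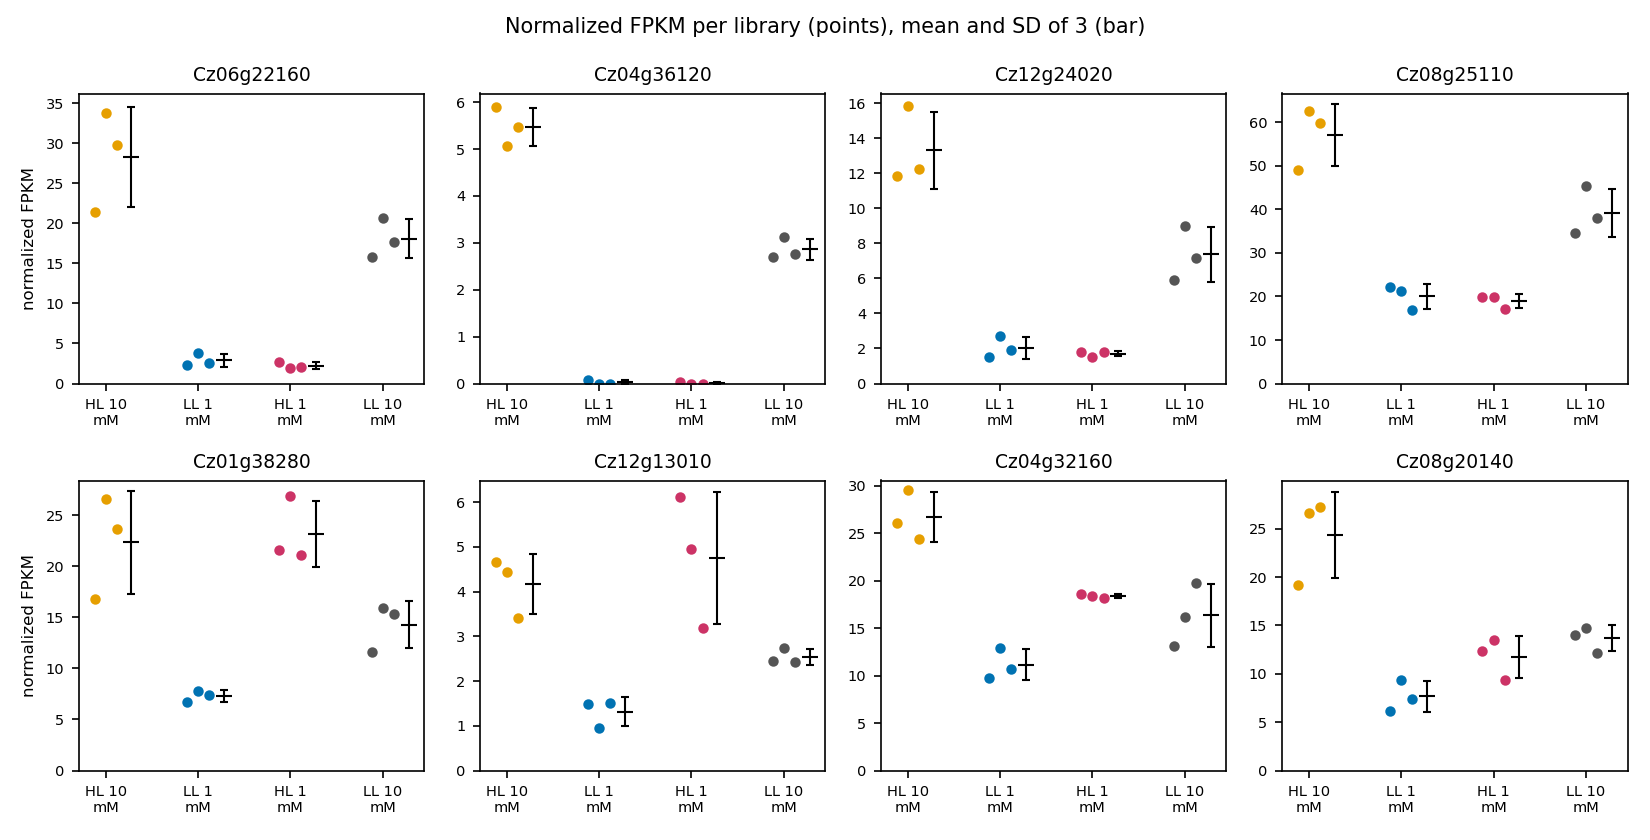
Normalized FPKM of 8 members in each library (points; 3 per condition, with mean and SD as bars; each y axis starts at 0). In the upper row HL 1 mM lies with LL 1 mM (Cz06g22160, Cz04g36120, Cz12g24020, Cz08g25110), and in the lower row it lies with HL 10 mM (Cz01g38280, Cz12g13010) or near LL 10 mM (Cz04g32160, Cz08g20140).

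A small group behaved otherwise under combined stress. Cz01g38280 had 16.8, 26.6 and 23.6 normalized FPKM in HL 10 mM, 6.68, 7.82 and 7.39 in LL 1 mM, 21.5, 26.9 and 21.0 in HL 1 mM, and 11.6, 15.9 and 15.3 in LL 10 mM. It rose by 0.67 in HL 1 mM against LL 10 mM (SE 0.17, limma adjusted p = 0.00628), with all 3 libraries above the LL 10 mM libraries. Against LL 1 mM it rose by 1.54 (SE 0.17, adjusted p = 0.00046), and its difference from HL 10 mM was 0.07 (SE 0.17, adjusted p = 0.757). Low nitrate thus went with a lower level of Cz01g38280 at 300 µE m−2 s−1, and no difference was detected at 1000, although without normalization it was called higher there by 0.49 (adjusted p = 0.0282).

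Cz12g13010 showed the same order at a lower level, with 4.65, 4.44 and 3.40 normalized FPKM in HL 10 mM, 1.50, 0.939 and 1.50 in LL 1 mM, 6.11, 4.95 and 3.19 in HL 1 mM, and 2.45, 2.75 and 2.42 in LL 10 mM. It rose by 0.67 in HL 1 mM against LL 10 mM (SE 0.18, limma adjusted p = 0.00894) and by 1.29 against LL 1 mM (SE 0.18, adjusted p = 0.00256). Its HL 1 mM libraries scattered widely, and the lowest (3.19) lay below the lowest HL 10 mM library (3.40). In deposited FPKM its LL 1 mM libraries overlapped those of LL 10 mM, with 2.80, 2.76 and 2.47 deposited FPKM in HL 10 mM, 1.85, 1.31 and 2.31 in LL 1 mM, 8.93, 7.25 and 5.67 in HL 1 mM, and 1.72, 1.71 and 1.85 in LL 10 mM.

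Cz04g32160 had 26.1, 29.5 and 24.4 normalized FPKM in HL 10 mM, 9.76, 12.9 and 10.7 in LL 1 mM, 18.6, 18.4 and 18.1 in HL 1 mM, and 13.1, 16.2 and 19.8 in LL 10 mM. It rose by 0.68 in HL 1 mM against LL 1 mM (SE 0.14, limma adjusted p = 0.0191), fell by 0.51 against HL 10 mM (SE 0.14, adjusted p = 0.0085), and had a difference of 0.18 from LL 10 mM (SE 0.14, adjusted p = 0.306). The call against LL 1 mM was lost without HL 1 mM replicate 1 (adjusted p = 0.0638), replicate 2 (0.0637) or replicate 3 (0.0529), and without LL 1 mM replicate 1 (0.0837). It was also lost with median scaling (0.61, adjusted p = 0.0577). The light difference of Cz04g32160 was 0.69 at 10 mM nitrate and 0.68 at 1 mM.

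Between these and the 21 lay Cz08g20140 and Cz14g10020, which no call separated from LL 10 mM or from LL 1 mM. Cz08g20140 had 19.2, 26.6 and 27.3 normalized FPKM in HL 10 mM, 6.16, 9.41 and 7.41 in LL 1 mM, 12.3, 13.5 and 9.31 in HL 1 mM, and 14.0, 14.8 and 12.2 in LL 10 mM. Its HL 1 mM libraries overlapped both low-light conditions, with a difference of −0.22 from LL 10 mM (SE 0.18, limma adjusted p = 0.324) and 0.56 from LL 1 mM (SE 0.18, adjusted p = 0.101). Cz14g10020 had 8.90, 9.56 and 8.43 normalized FPKM in HL 10 mM, 3.97, 2.92 and 2.07 in LL 1 mM, 5.59, 4.15 and 3.42 in HL 1 mM, and 5.56, 5.85 and 6.05 in LL 10 mM. Its difference from LL 10 mM was −0.36 (SE 0.17, adjusted p = 0.0981) and became a call without HL 1 mM replicate 1 (−0.52, adjusted p = 0.0265). Without normalization the differences of Cz08g20140 and Cz14g10020 from LL 10 mM were 0.45 and 0.55, and both were called higher.

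At 1 mM nitrate, higher irradiance was accompanied by little difference in most members. In HL 1 mM against LL 1 mM, limma called 3 of the 26 higher (Cz01g38280, Cz12g13010 and Cz04g32160), where 2.82% of all genes were higher. It called 0 lower, where 2.41% of all genes were lower, and 2 at an unadjusted p under 0.05. The replicate numbers of HL 1 mM and LL 1 mM were taken to pair their libraries, by the check described with the methods. With the replicate number as a block limma called 2 members lower, where 4.27% of all genes were lower in that fit. They were Cz02g36210 (−0.34, SE 0.07, adjusted p = 0.0255) and Cz08g25100 (−0.35, SE 0.08, adjusted p = 0.0363). The light difference at 1 mM ran from −0.35 to 1.54 with a median of −0.03, and 16 members had a lower mean in HL 1 mM than in LL 1 mM. Libraries did not overlap in 3 members that were higher (13.0% of all genes tested) and in 3 that were lower (13.4% of all genes), Cz02g36210, Cz08g25100 and Cz17g09140. Medians for the other patterns with these thresholds were 0.12 for genes higher in both single stresses, −0.20 for genes lower in both, and 0.38 for genes lower at high light and higher at low nitrate. For the 345 genes that met the light demands at any nitrate difference, members included, the median light difference was 0.08 at 1 mM and 0.64 at 10 mM. A small light difference at 1 mM was therefore not particular to the members.

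At high irradiance, low nitrate was accompanied by a lower level of nearly all members. In HL 1 mM against HL 10 mM, limma called 24 lower, where 33.2% of all genes were lower, and 0 higher, where 24.7% of all genes were higher and 0 members passed an unadjusted p of 0.05. The differences ran from −3.17 for Cz06g22160 to 0.13 for Cz12g13010, with a median of −1.32. Only Cz01g38280 and Cz12g13010 were not called lower, and with median scaling Cz12g13010 was called higher by 0.69 (adjusted p = 0.00192). Without normalization limma called 18 lower and 2 higher. HL 10 mM libraries had to be high for a gene to be chosen, so this count is a description.

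**Figure D4:**
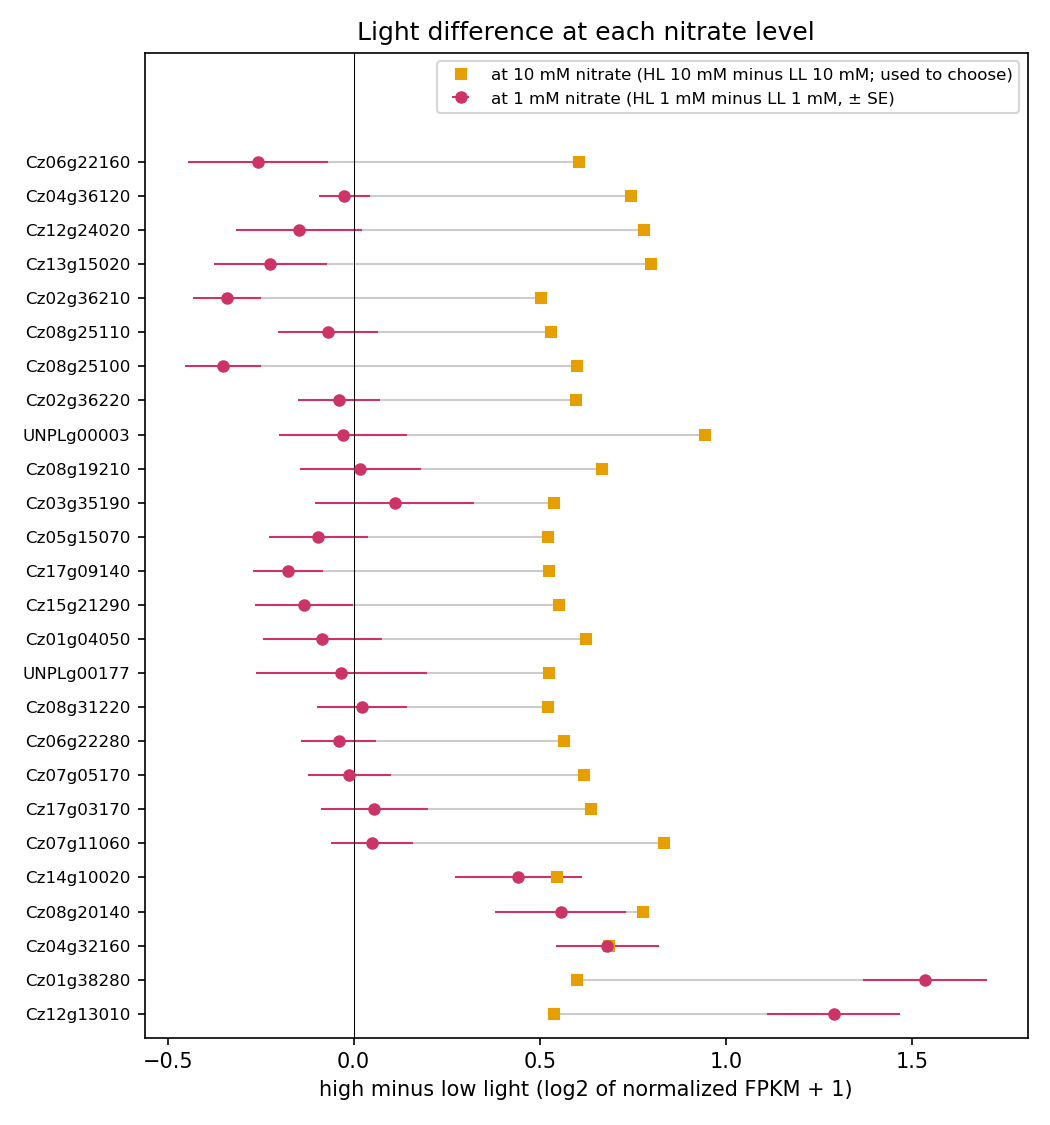
Difference between high and low light of each member at 10 mM nitrate (squares, the values that chose the genes) and at 1 mM nitrate (circles with SE from limma), in log2 of normalized FPKM + 1. The squares lie between 0.50 and 0.94, while 21 circles lie between −0.35 and 0.11 and 5 lie at 0.44 or higher.

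The test of unequal light differences, (HL 1 mM minus LL 1 mM) minus (HL 10 mM minus LL 10 mM), called 11 members lower, where 2.37% of all genes were lower, and 1 higher, where 3.10% of all genes were higher. Since 3 of its 4 conditions chose the genes, with a positive light difference at 10 mM required, the count was steered by the choice. Cz13g15020 had the lowest value, −1.02 (SE 0.21, limma adjusted p = 0.0275), with a light difference of −0.22 at 1 mM and 0.80 at 10 mM. Cz01g38280 had the only positive call, 0.94 (SE 0.24, adjusted p = 0.0477), with light differences of 1.54 at 1 mM and 0.60 at 10 mM. Cz04g36120 (−0.77, adjusted p = 0.00338), Cz02g36210 (−0.84, adjusted p = 0.00806) and Cz08g25100 (−0.95, adjusted p = 0.00807) had the lowest adjusted p-values. Many of these calls lie close to the threshold. The 11 became 3 to 12 with each library left out, namely 5, 6 and 4 without replicates 1, 2 and 3 of HL 1 mM, 5 without replicate 1 or 2 of HL 10 mM, 4 and 3 when replicate 1 or 2 of LL 1 mM was left out, and 6 and 4 when replicate 1 or 3 of LL 10 mM was left out. The positive call of Cz01g38280 was kept in only 3 of the 12 runs, those that left out replicate 3 of HL 1 mM, replicate 2 of HL 10 mM or replicate 1 of LL 10 mM. Without normalization and with median scaling the positive call was of Cz12g13010 instead (1.14 and 0.98).

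Of the 11 members at 5 or more normalized FPKM in LL 10 mM, 7 fell in HL 1 mM against LL 10 mM, and 3 of these are described next. Cz07g11060 had 52.1, 40.5 and 40.3 normalized FPKM in HL 10 mM, 17.6, 17.6 and 15.4 in LL 1 mM, 18.6, 18.1 and 15.7 in HL 1 mM, and 22.9, 26.3 and 23.8 in LL 10 mM. HL 10 mM replicate 1 lay above the other libraries, and the gap between LL 10 mM and the 1 mM libraries was narrow. It fell by 0.45 in HL 1 mM against LL 10 mM (SE 0.11, limma adjusted p = 0.00521), although without normalization the difference was 0.08. Cz06g22280 had 38.1, 40.1 and 38.9 normalized FPKM in HL 10 mM, 21.1, 18.6 and 14.9 in LL 1 mM, 17.5, 17.8 and 17.3 in HL 1 mM, and 25.0, 26.7 and 26.6 in LL 10 mM. It fell by 0.55 (SE 0.10, adjusted p = 0.000949), and its HL 1 mM libraries lay between 17.3 and 17.8. UNPLg00177 had 9.54, 8.93 and 9.29 normalized FPKM in HL 10 mM, 3.75, 4.11 and 2.55 in LL 1 mM, 4.15, 3.96 and 2.15 in HL 1 mM, and 8.17, 6.52 and 4.24 in LL 10 mM. It fell by 0.72 (SE 0.23, adjusted p = 0.0211), a call that was lost without HL 1 mM replicate 3 (0.0826) or LL 10 mM replicate 1 (0.0804) or 2 (0.0613). Its LL 10 mM libraries spread by more than those of any other condition.

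Of the 15 members under 5 normalized FPKM in LL 10 mM, 14 fell in HL 1 mM against LL 10 mM, and the exception was Cz12g13010. UNPLg00003, with the highest light difference of all 26, had 5.11, 6.80 and 4.71 normalized FPKM in HL 10 mM, 0.880, 0.926 and 0.691 in LL 1 mM, 0.811, 0.630 and 0.950 in HL 1 mM, and 1.96, 3.51 and 1.86 in LL 10 mM. It fell by 0.91 in HL 1 mM (SE 0.17, limma adjusted p = 0.00111), and LL 10 mM replicate 2 stood above the other 2. Cz08g19210 had 2.44, 2.86 and 2.55 normalized FPKM in HL 10 mM, 0, 0.155 and 0.583 in LL 1 mM, 0.228, 0.114 and 0.386 in HL 1 mM, and 0.920, 1.53 and 1.43 in LL 10 mM, the lowest mean in HL 1 mM after Cz04g36120, and LL 1 mM replicate 1 was listed at 0. Cz03g35190 had 7.20, 8.37 and 5.78 normalized FPKM in HL 10 mM, 1.23, 2.55 and 1.98 in LL 1 mM, 1.52, 1.80 and 3.21 in HL 1 mM, and 4.99, 3.93 and 4.77 in LL 10 mM. HL 1 mM replicate 3 was the highest of its 1 mM libraries, and the gene fell by 0.84 (SE 0.21, adjusted p = 0.00668).

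Cz17g09140 had 4.39, 3.48 and 3.55 normalized FPKM in HL 10 mM, 1.04, 1.13 and 1.42 in LL 1 mM, 0.911, 1.02 and 0.889 in HL 1 mM, and 2.46, 2.07 and 2.48 in LL 10 mM. Its HL 1 mM libraries were all below its LL 1 mM libraries, and it fell by 0.78 against LL 10 mM (SE 0.09, limma adjusted p = 5.41e-05). Cz17g03170 had 5.06, 4.12 and 3.48 normalized FPKM in HL 10 mM, 1.57, 0.994 and 1.38 in LL 1 mM, 1.39, 1.28 and 1.50 in HL 1 mM, and 1.78, 2.45 and 2.85 in LL 10 mM. It fell by 0.48 (SE 0.14, adjusted p = 0.0155), and the call was lost without HL 1 mM replicate 2 (0.0509) or LL 10 mM replicate 3 (0.0629). With median scaling the difference of Cz17g03170 was −0.094 (adjusted p = 0.642). Cz08g31220 had 4.83, 5.11 and 4.09 normalized FPKM in HL 10 mM, 1.40, 1.77 and 1.41 in LL 1 mM, 1.78, 1.57 and 1.34 in HL 1 mM, and 3.04, 3.54 and 2.33 in LL 10 mM, and its HL 1 mM and LL 1 mM libraries overlapped.

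In 4 further low members every 1 mM library lay below 1.3 normalized FPKM. Cz05g15070 had 4.72, 2.88 and 3.24 normalized FPKM in HL 10 mM, 0.891, 1.05 and 0.875 in LL 1 mM, 0.848, 0.991 and 0.624 in HL 1 mM, and 2.18, 2.38 and 1.96 in LL 10 mM. Cz15g21290 had 3.35, 3.31 and 3.41 normalized FPKM in HL 10 mM, 1.24, 1.01 and 0.587 in LL 1 mM, 0.836, 0.738 and 0.700 in HL 1 mM, and 2.22, 2.29 and 1.48 in LL 10 mM. In both genes the HL 1 mM and LL 1 mM libraries overlapped below every LL 10 mM library. Cz01g04050 had 3.02, 3.79 and 2.33 normalized FPKM in HL 10 mM, 1.09, 0.671 and 0.325 in LL 1 mM, 0.645, 0.523 and 0.549 in HL 1 mM, and 1.52, 1.77 and 1.52 in LL 10 mM. Cz07g05170 had 2.90, 2.63 and 1.99 normalized FPKM in HL 10 mM, 0.475, 0.720 and 0.607 in LL 1 mM, 0.640, 0.539 and 0.575 in HL 1 mM, and 1.57, 1.05 and 1.22 in LL 10 mM. Falls in HL 1 mM against LL 10 mM were 0.80 for Cz05g15070, 0.76 for Cz15g21290, 0.72 for Cz01g04050 and 0.52 for Cz07g05170, with limma adjusted p-values between 0.000472 and 0.00296.

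The gene IDs give an order along the annotation, and in this order 2 pairs of members were neighbours. Genomic coordinates were not used here. Cz08g25100 had 49.4, 54.4 and 51.4 normalized FPKM in HL 10 mM, 20.4, 20.6 and 22.7 in LL 1 mM, 14.9, 18.3 and 16.2 in HL 1 mM, and 31.2, 39.3 and 31.4 in LL 10 mM, close to the values of its neighbour Cz08g25110 given above. The genes on either side, Cz08g25090 (0.12 and −0.24) and Cz08g25120 (0.19 and −0.09), had smaller differences in HL 10 mM and LL 1 mM from LL 10 mM. Cz08g25100 fell by 1.00 in HL 1 mM (SE 0.10, limma adjusted p = 1.83e-05) and Cz08g25110 by 1.00 (SE 0.13, adjusted p = 0.000113), while the genes on either side differed by 0.04 and 0.02.

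Cz02g36210 had 6.29, 5.91 and 5.74 normalized FPKM in HL 10 mM, 1.92, 1.80 and 1.62 in LL 1 mM, 1.38, 1.02 and 1.19 in HL 1 mM, and 4.32, 3.35 and 4.15 in LL 10 mM. Its neighbour Cz02g36220 had 8.25, 7.67 and 6.47 normalized FPKM in HL 10 mM, 1.77, 2.28 and 1.96 in LL 1 mM, 2.19, 1.89 and 1.69 in HL 1 mM, and 3.94, 4.83 and 4.99 in LL 10 mM. Cz02g36210 fell by 1.17 in HL 1 mM (SE 0.09, limma adjusted p = 2.48e-06) and Cz02g36220 by 0.93 (SE 0.11, adjusted p = 4.7e-05). The next gene, Cz02g36230, missed the light limit with 0.37, and had −0.58 in LL 1 mM and −0.86 in HL 1 mM. Whether neighbouring genes share sequence or reads was not tested.

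**Figure D5:**
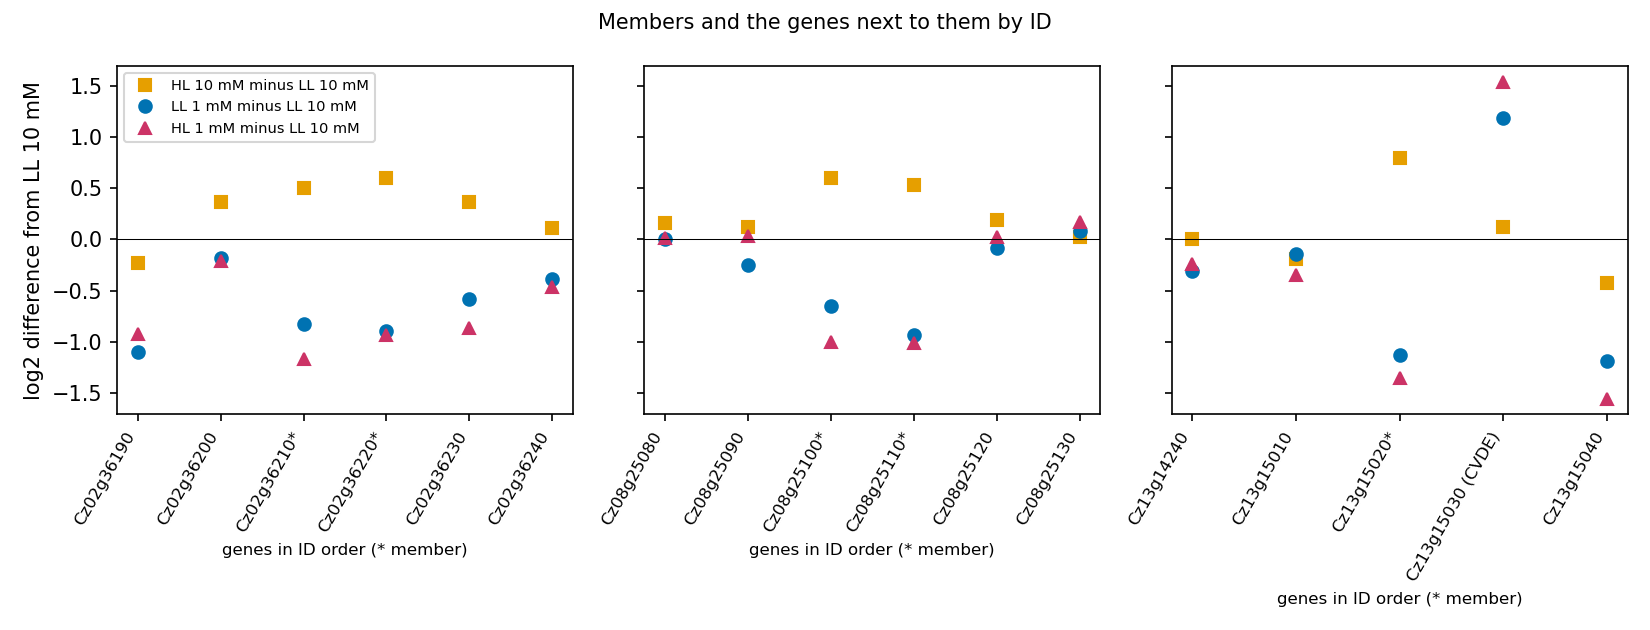
Differences from LL 10 mM in log2 of normalized FPKM + 1 for members (asterisk) and the genes next to them in ID order, with squares for HL 10 mM, circles for LL 1 mM and triangles for HL 1 mM. Cz08g25100 and Cz08g25110 stand apart from the genes on either side, and Cz13g15020 lies next to CVDE, whose nitrate differences have the opposite sign.

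Cz13g15020 lies next to Cz13g15030, which the study names CVDE and groups with the β-cyclases, enzymes that close the rings of β-carotene. Cz13g15020 differed from LL 10 mM by 0.80 at high light, by −1.13 at low nitrate and by −1.35 under both, and CVDE by 0.12, 1.18 and 1.54 in the same order. Among the 48 other genes directly next to a member in ID order, 22 had a positive light and a negative nitrate difference, by sign alone, where 28.4% of all genes are. Their median differences were 0.06 in HL 10 mM and −0.18 in LL 1 mM. By ID prefix, Cz08 held 5 members and 5.40% of the genes tested, and every other prefix held 0 to 2.

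Carotenoid synthesis is the pathway whose gene IDs the study names, and 0 of its 25 genes met the rule. Of these, 6 had all HL 10 mM libraries above and all LL 1 mM libraries below those of LL 10 mM, with a light or nitrate difference short of its limit. The share of all genes tested that do so was not counted, so the 6 are a description and no trait of the pathway. The enzymes upstream of lycopene, which make phytoene and then desaturate and isomerize it, gave 4 of the 6. They also hold more of the 25 IDs than the cyclases, the hydroxylases and ketolases, or the genes of epoxidation and neoxanthin. ZDS (Cz10g17010), the ζ-carotene desaturase, had a light difference of 0.497 and a nitrate difference of −0.25, and ZISO (Cz10g17130), the ζ-carotene isomerase, had 0.45 and −0.35. CRTISO1 (Cz12g03260) had 0.42 and −0.19 and CRTISO (Cz16g01210) 0.07 and −0.54, both carotene isomerases. The other 2 were CYP97C (Cz09g07100), a carotene hydroxylase of lutein synthesis, with 0.19 and −0.23, and CRUP (Cz07g07080), with 0.21 and −0.11. In HL 1 mM, ZDS and ZISO differed from LL 10 mM by −0.04 and −0.09. The phytoene desaturase gene PDS Cz08g09110 had a light difference of 0.70 inside the range, but its LL 1 mM libraries, with a difference of −0.36, overlapped those of LL 10 mM. BKT2 (Cz04g11250), a ketolase, had a nitrate difference of −1.34 and a light difference of 0.27 with overlapping libraries.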

How the data were processed

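Polyadenylated RNA of 12 libraries, 3 for each of 4 conditions, was measured by stranded RNA-seq. The authors checked reads with FastQC, mapped them with HISAT2 and quantified genes with StringTie in the MARACAS pipeline, using the published genome and annotation. The deposited values were taken as FPKM from their range and sums, on a linear scale and before quantile normalization between libraries. They give no counts, so depth and counting error are not known from them. All 12 value columns were used.

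Genes at 0 in every library were dropped, log2(FPKM + 1) was quantile-normalized over the 12 libraries, and 1 limma model with the 4 conditions was fitted to 14916 genes (R 4.3.3, limma 3.58.1, prior degrees of freedom 2.63). Genes were called at a limma p under 0.05 after Benjamini-Hochberg adjustment over the whole table, without a fold threshold. Normalized FPKM is the back-transformed value. Smallest exact permutation p for 3 against 3 libraries is 0.1, so single genes rest on the variance limma pools. The code was tested on simulated data.

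Libraries with the same replicate number were compared by the correlation of their deviations from the condition means over all genes. The median over 18 such pairs was 0.17, and it was −0.10 over pairs with other numbers. Deviations within a condition sum to 0, so the lower median of the other pairs is no separate evidence. Pairs with other numbers reached 0.35. HL 1 mM replicate 2 correlated with LL 1 mM replicate 1 (0.13) nearly as well as with LL 1 mM replicate 2 (0.15). All 3 pairs were over 0.1 between HL 1 mM and LL 1 mM (0.15 to 0.44), so the numbers were taken to pair these libraries, and 2 of 3 were between HL 1 mM and LL 10 mM or HL 10 mM. The labels do not say what a number stands for.

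All 26 members are named, together with genes next to a threshold, genes adjacent by ID and the carotenogenic genes nearest to the rule. The members and lists were chosen with earlier results of these data known. Some neighbouring genes and carotenogenic genes were named after their values were seen. Alternatives were a pseudocount of 0.1, a filter on mean FPKM under 1, no normalization, median scaling, a trended and robust prior, a replicate block, fits of the 6 libraries compared, a 2-fold threshold, other thresholds of the rule and leaving out each library. Markers of cell types were not used, since each culture is of 1 unicellular alga. Gene products, sequences and coordinates were not used here.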

Additional observations from a re-analysis of the deposited data

Results flagged for a closer look

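In 12 of the 26 members the light difference at 1 mM nitrate differed from that at 10 mM by limma's interaction test at an adjusted p under 0.05. The value is the light difference at 1 mM minus that at 10 mM. It was negative in 11, where 2.37% of all genes were called lower, and the 11 became 3 to 12 with each library left out. The values were −1.02 for Cz13g15020, −0.97 for UNPLg00003, −0.95 for Cz08g25100, −0.93 for Cz12g24020, −0.84 for Cz02g36210, −0.78 for Cz07g11060, −0.77 for Cz04g36120, −0.70 for Cz17g09140, −0.64 for Cz02g36220, −0.63 for Cz07g05170 and −0.61 for Cz06g22280. It was positive in Cz01g38280, at 0.94, where 3.10% of all genes were called higher, and this call was kept in 3 of 12 runs that left out a library. Adjusted p-values ran from 0.00338 for Cz04g36120 to 0.0499 for Cz12g24020. The light difference at 10 mM chose these genes, so the sign of the 11 was favoured by the choice.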

How the results depend on the processing

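The rule took 26 genes, 10 without normalization and 38 with median scaling, of which 4 and 13 were among the 26. It took 59 with a pseudocount of 0.1, 63 and 8 with thresholds of 0.4 and 0.6, and 18 to 32 with each library left out. For the 26, the median difference of HL 1 mM from LL 10 mM was −0.77, and it was −0.072 without normalization, −0.47 with median scaling, −1.08 with a pseudocount of 0.1, −0.89 with the filter on mean FPKM, and −0.83 to −0.70 with each library left out. Calls higher and lower against LL 10 mM were 2 and 21, 5 and 7 without normalization, 2 and 16 with median scaling, 0 and 6 with a 2-fold threshold, and 2 and 20 to 22 with each library left out. Against LL 1 mM, 1 was lower with a pseudocount of 0.1 or the filter, and 0 to 1 with each library left out. Against HL 10 mM, 24 were lower, 18 without normalization and 21 with a 2-fold threshold. In the same contrast, 2 were higher without normalization and 1 with median scaling. For the interaction, calls were 0 higher and 5 lower with a pseudocount of 0.1, 0 and 1 with a 2-fold threshold, 6 lower without normalization, and 0 to 1 and 3 to 12 with each library left out.

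Without normalization the difference from LL 10 mM turned positive in Cz08g20140 (0.45), Cz03g35190 (0.021), Cz14g10020 (0.55), Cz07g11060 (0.078), UNPLg00177 (0.15), Cz17g03170 (0.32), Cz08g31220 (0.19) and Cz07g05170 (0.041), and with median scaling in Cz14g10020 (0.026). The values are of a table in which the median gene itself was higher by 0.41 without normalization. With the replicate number as a block, 2 members were lower against LL 1 mM, 14 in the interaction and 21 against LL 10 mM. The block changed no other count of calls.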
